A study of Mus musculus with 6 samples.

Results

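Colipase and 7 further digestive enzymes of the pancreatic type were followed in intestinal epithelial cells of mice with and without caspase-8. The members were chosen by gene symbol: Clps, Pnlip, Pnliprp1, Pnliprp2, Cel, Cpa1, Cpb1 and Ctrb1, with every probe set annotated to one of them. These were 9 of 45101 probe sets, and they covered 7 of the 8 genes, out of 18193 genes measured. No probe set was paired with Pnlip in the annotation used, so that gene is not analysed here. The members were picked with the contrast between the genotypes already known, so their differences are given as a description, without p-values.

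The arrays came from 6 C57BL/6 animals, each giving 1 array. All 6 carried the casp8 flox allele. The 3 floxed controls were villinCre negative, and the 3 caspase-8 deficient animals were villinCre positive, so that Cre recombinase driven by the villin promoter acts in the gut epithelium. Age, sex, the length of gut sampled and the deleted exons are not given in the labels. The series asks how loss of caspase-8, the protease that starts death-receptor apoptosis and restrains necroptosis, alters expression in this epithelium. Values are RMA log2 expression (robust multi-array average), on which 1 unit is a doubling. Signals of different probe sets are not comparable as transcript amounts.

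Dietary fat is split in the gut lumen by lipases that the exocrine pancreas secretes. Bile salts keep pancreatic triglyceride lipase off the fat droplet, and colipase, a small cofactor, anchors the lipase there. Carboxypeptidases and chymotrypsin, released from acinar cells as inactive zymogens, digest protein in the same juice. Acinar cells make all of these in bulk, and for some, such as colipase and the lipase-related proteins, transcripts are also found outside the pancreas.

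The arrays were close to one another, with correlations across genes of 0.990 to 0.994 among controls and 0.984 to 0.995 among caspase-8 deficient arrays. Epithelial keratins, Epcam and Cdh1 were measured on every array, and of 7 epithelial genes 0 passed in limma (2 at an unadjusted p under 0.05), with a median difference of 0.052. Casp8 itself stood at 10.53, 9.74 and 10.24 without Cre against 9.27, 9.56 and 10.40 with Cre, a difference of −0.43 (SE 0.31) that did not pass (limma, adjusted p = 0.518). Caspase-8 deficient replicate 3 read above 2 of the 3 controls. Where the probe set lies relative to the removed exons is not given in the sources used here, so whether these values check the deletion is not known, and genotypes are those of the labels. The Gapdh control probe sets at the 3′ and the 5′ end, whose gap widens in degraded RNA, lay 0.68 apart in control replicate 1, 0.93 in control replicate 2 and 0.21 to 0.29 on the other 4 arrays. Control replicate 3 stood apart by stomach markers and caspase-8 deficient replicate 1 by stromal and vessel markers. The values of both are given with and without them below.

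Clps was the member with the widest gap between the genotypes. In the floxed controls it read 10.73, 10.44 and 10.75, and in the caspase-8 deficient arrays 7.62, 7.38 and 7.38. The groups lay 2.83 log2 units apart at their closest, while the arrays of one genotype spread over 0.31 and 0.24. The mean went from 10.64 ± 0.17 to 7.46 ± 0.14 (SD, n = 3), a log2 difference of −3.18 (SE 0.13, 95% interval −3.49 to −2.87), or 9.07-fold lower. Among all 18193 genes this was the 3rd most negative difference.

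A second Clps probe set was lower by a like amount, with less scatter among the controls. It read 10.63, 10.65 and 10.64 in the controls against 7.34, 7.11 and 7.15, a difference of −3.44 (SE 0.11), or 10.9-fold lower. In both probe sets caspase-8 deficient replicate 1 was the highest of its group, by no more than 0.24. The difference of the first probe set lay between −3.28 and −3.13 when each array was left out in turn. In bulk epithelium, fewer cells that make a transcript and less of it in each cell cannot be told apart, for Clps or any gene below.

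**Figure D1:**
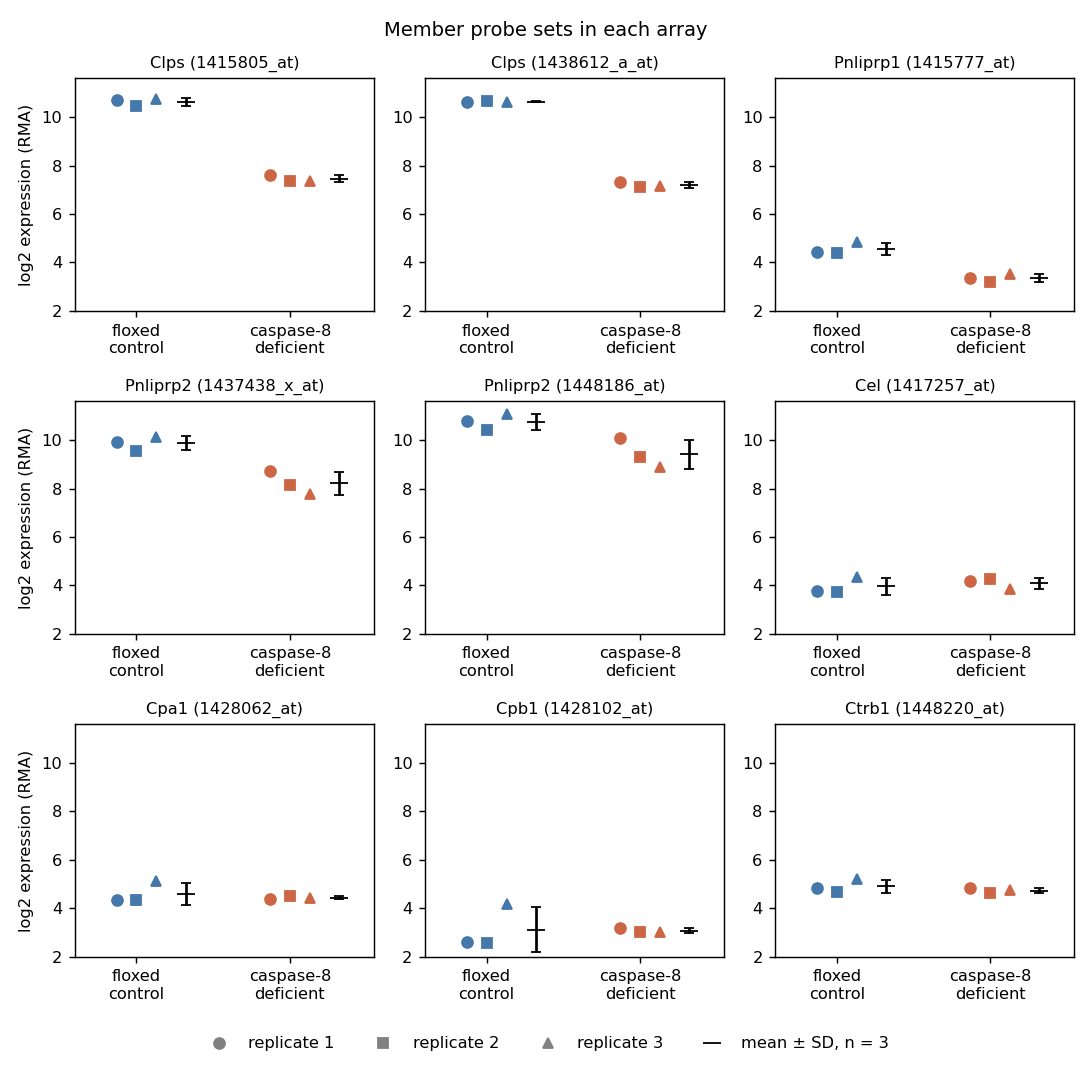
Log2 RMA expression of the 9 member probe sets in each array, floxed controls in blue and caspase-8 deficient in orange, with the symbol giving the replicate number and the bar the mean ± SD of 3 arrays. Both Clps probe sets drop from above 10 to below 8, both Pnliprp2 probe sets and Pnliprp1 lie lower without overlap, and Cel, Cpa1, Cpb1 and Ctrb1 overlap, with control replicate 3 their highest array.

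The lipase-related genes Pnliprp1 and Pnliprp2 sit side by side on chromosome 19, next to Pnlip. Pnliprp2 encodes a lipase that also splits galactolipids and phospholipids, and the product of Pnliprp1 has little or no known lipase activity. Because these neighbours were both lower in the deficient arrays, their promoters are shown. That of Cel on chromosome 2 is shown beside them, as a member whose groups overlapped. The sequences are from RefSeq (GRCm38.p6), 250 bases before to 50 after the annotated start, read 5′ to 3′ on the gene's strand. They are chr19:58728637-58728936 on the plus strand for Pnliprp1, chr19:58759473-58759772 on the plus strand for Pnliprp2 and chr2:28563354-28563653 on the minus strand for Cel. Capitals mark CACCTG and TTCCCA on either strand, the E-box and the box beside it that PTF1, the acinar transcription factor complex, binds as a pair, and the TATA-type run TATAAA, which none of these 3 holds.
Pnliprp1: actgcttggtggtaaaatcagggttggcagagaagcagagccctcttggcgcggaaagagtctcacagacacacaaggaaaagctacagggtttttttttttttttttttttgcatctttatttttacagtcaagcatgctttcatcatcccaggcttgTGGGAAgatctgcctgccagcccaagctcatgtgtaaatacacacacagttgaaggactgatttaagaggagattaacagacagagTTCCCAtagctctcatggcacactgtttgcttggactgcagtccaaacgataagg
Pnliprp2: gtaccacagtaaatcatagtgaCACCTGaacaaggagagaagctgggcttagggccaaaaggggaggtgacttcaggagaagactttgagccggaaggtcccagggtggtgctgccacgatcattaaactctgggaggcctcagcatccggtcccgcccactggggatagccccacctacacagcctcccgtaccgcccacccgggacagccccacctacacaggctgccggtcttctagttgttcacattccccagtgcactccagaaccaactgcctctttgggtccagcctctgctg
Cel: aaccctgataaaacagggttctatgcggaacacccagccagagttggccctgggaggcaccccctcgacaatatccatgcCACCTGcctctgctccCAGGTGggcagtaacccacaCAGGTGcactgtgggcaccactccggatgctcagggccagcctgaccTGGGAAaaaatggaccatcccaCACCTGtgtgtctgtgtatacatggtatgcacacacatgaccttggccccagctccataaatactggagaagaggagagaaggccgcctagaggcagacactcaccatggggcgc

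The promoter of Pnliprp1 held TTCCCA 2 times and no CACCTG, and that of Pnliprp2 held CACCTG 1 time and no TTCCCA. The Cel promoter held CACCTG 4 times and TTCCCA 1 time. Promoters were found for 7 of the 8 members, all but Clps. Of these, 3 held CACCTG, 5 held TTCCCA and 2 held TATAAA, and only that of Cel held both boxes of the PTF1 pair. Over all 32851 promoters of that length, 20.2% held CACCTG, 25.6% TTCCCA, 13.6% TATAAA and 5.27% both boxes. These are matches of letters and show no binding.

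By its brighter probe set, Pnliprp2 read 10.78, 10.41 and 11.07 in the controls, against 10.07, 9.29 and 8.89 with caspase-8 deleted. The groups did not overlap, but the highest deficient array came within 0.34 of the lowest control. The mean was 10.75 ± 0.33 against 9.42 ± 0.60, a difference of −1.34 (SE 0.30, 95% interval −2.02 to −0.65), or 2.52-fold lower. Its other probe set, of a type that can bind close relatives, read 9.92, 9.55 and 10.12 against 8.73, 8.15 and 7.77, a difference of −1.65 (SE 0.25), or 3.15-fold lower. The 2 probe sets ranked the arrays alike within each genotype.

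Pnliprp2 was far less even than Clps among the deficient arrays. Relative to their control means, replicates 1, 2 and 3 stood at −0.68, −1.46 and −1.86 for Pnliprp2 and at −3.02, −3.26 and −3.26 for Clps. The deficient arrays thus spanned 1.18 log2 units for the lipase-related gene and 0.24 for colipase. Replicate 1, which carried the stromal and vessel signal, was the highest for both genes. Without it the Pnliprp2 difference was −1.66 and without replicate 3 it was −1.07.

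Pnliprp1 had a dim probe set, which read 4.44, 4.39 and 4.86 in the controls against 3.38, 3.18 and 3.54. All 3 deficient arrays lay below all 3 controls, by at least 0.85. The mean was 4.56 ± 0.26 against 3.37 ± 0.18, a difference of −1.20 (SE 0.16, 95% interval −1.57 to −0.82), or 2.29-fold lower. RMA compresses dim signals, so a fold near the floor can be understated. Without detection calls, Pnliprp1 could not be called present or absent. Both control and deficient means lay under the array medians of 4.85 to 4.91.

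Cel encodes the bile salt-activated lipase, which splits cholesterol esters and other lipids. It read 3.79, 3.73 and 4.37 in the controls against 4.17, 4.26 and 3.84. The groups overlapped, with a difference of 0.13 (SE 0.20, 95% interval −0.33 to 0.59). Cel is thus the single member with a positive difference, although it stood at −0.21 with the Gapdh difference as a covariate. On the deposited scale the interval does not reach the size seen for Clps, Pnliprp1 or Pnliprp2. Cel was dim, with means of 3.96 and 4.09 under the array medians, where a decrease may be understated or missed. The interval therefore does not show that Cel moved apart from those genes.

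The 3 protease genes were dim as well. Cpa1, a carboxypeptidase that trims aromatic and aliphatic ends, read 4.34, 4.33 and 5.12 in the controls against 4.40, 4.50 and 4.43. Cpb1, the carboxypeptidase for basic ends, read 2.62, 2.56 and 4.19 against 3.20, 3.01 and 3.02. Ctrb1, chymotrypsinogen B, read 4.82, 4.68 and 5.20 against 4.82, 4.61 and 4.77. In all 3 genes control replicate 3 was the highest array and the other controls lay among or below the deficient arrays.

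Their differences were −0.16 (95% interval −0.65 to 0.33) for Cpa1, −0.047 (−0.96 to 0.86) for Cpb1 and −0.17 (−0.53 to 0.19) for Ctrb1. For Cpb1 the interval is wide because the controls spread over 1.63 log2 units, against 0.20 in the deficient arrays. For Ctrb1 the lower bound of −0.53 bounds the decrease on the deposited scale in this fit only. With the Gapdh difference as a covariate Ctrb1 stood at −0.42 (SE 0.15), which does not keep to that bound. In genes this dim a decrease may also be understated or missed.

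No gene was left out for a low signal, so all 7 measured members entered the fit over 18193 genes. In limma with Benjamini-Hochberg adjustment, 2 of the 7 passed as lower, Clps and Pnliprp1, and 0 as higher, where 0.467% of all genes passed as lower and 0.308% as higher. Groups did not overlap, with the deficient arrays lower, in 3 of 7, against 11.2% of all genes, and the same 3 were at least 2-fold lower, against 0.654%. Since the contrast helped to pick the members, nothing is read from these shares. The same holds for the members' calls in every other setting of the fit, here and below, which only describe how the threshold falls. The median difference over the 7 was −0.17, against 0.022 over all genes. It moved to −0.018 without control replicate 3, −0.30 without control replicate 1, −0.33 without control replicate 2 and −0.91 with the Gapdh difference as a covariate. That covariate is wide only in control replicates 1 and 2, so its fit leans on control replicate 3, the control with the stomach markers. Clps passed in 16 of 17 other settings of the gene fit, all but the one without control replicates 1 and 2 together, Pnliprp1 in 8 and Pnliprp2 in 3. Pnliprp1 lost its call without any 1 of control replicates 1, 2 and 3 or of caspase-8 deficient replicates 2 and 3, its difference lying between −1.29 and −1.05, and Pnliprp2 gained one without caspase-8 deficient replicate 1, without dim genes and with array weights.

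**Figure D2:**
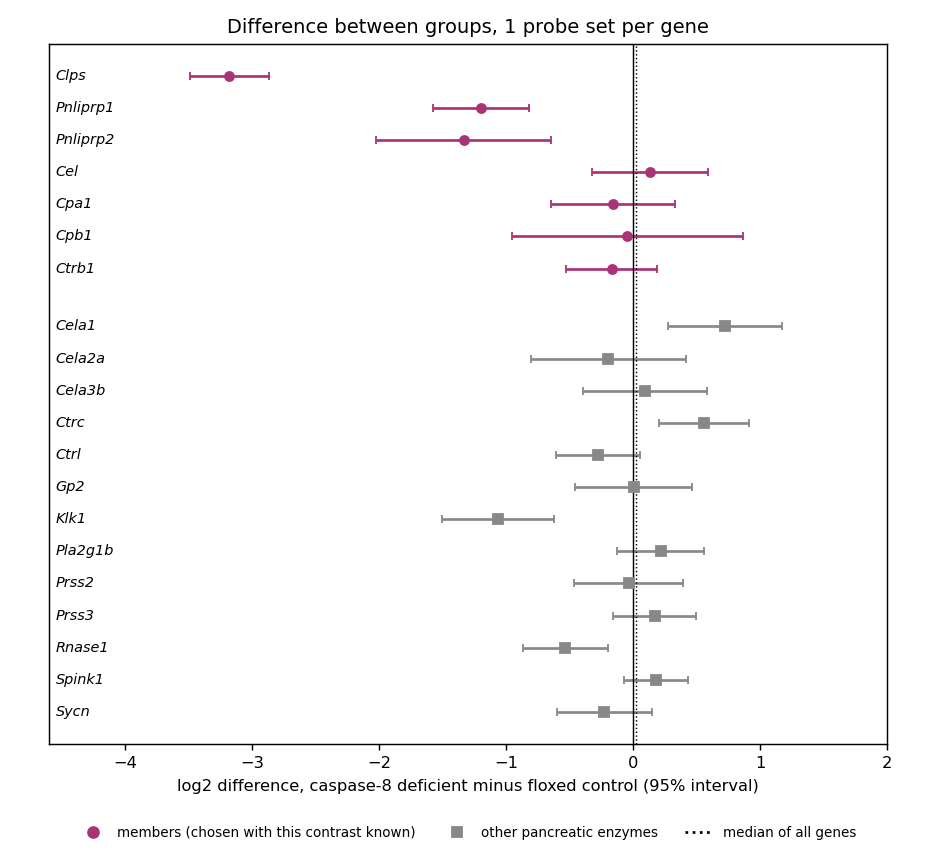
Log2 difference, caspase-8 deficient minus floxed control, with its 95% interval from limma, for the 7 measured members (purple) and 13 other pancreatic enzyme genes (grey), 1 probe set per gene. Clps lies at −3.18, Pnliprp1 and Pnliprp2 at −1.20 and −1.34, and the other 4 members and most of the grey genes around 0, where the dotted line marks the median of all genes.

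Of 21 other genes of acinar products, 13 were measured, and most of these were dim: 8 had a mean below that of the median gene, among them Prss3, Ctrc, Gp2 and Cela2a at control means of 2.20, 3.19, 3.19 and 3.60. In genes this dim a decrease may be understated or missed, so the list's count does not show whether colipase moved apart from other acinar products. In limma 0 of the 13 passed in either direction, and 4 had an unadjusted p under 0.05, where 0.775% and 16.6% of all genes did. Of the 13 differences 6 were negative and 7 positive, with a median of 0.0053, against 0.022 over all genes. That median moved to −0.17 without control replicate 2, to 0.18 without control replicate 3 and to −0.33 with the Gapdh difference as a covariate, and it was −0.27 over the 5 brighter genes, Cela1, Ctrl, Klk1, Rnase1 and Spink1. The 4 were Klk1, a tissue kallikrein, at −1.07 (adjusted p = 0.0541), Rnase1, the pancreatic-type ribonuclease, at −0.53 (adjusted p = 0.149), and the proteases Cela1 at 0.72 (adjusted p = 0.140) and Ctrc at 0.56 (adjusted p = 0.149). The trypsinogen Prss2 stood at −0.035, the elastase Cela3b at 0.092 and Spink1, a trypsin inhibitor, at 0.18. The count rose to 1, Klk1, without caspase-8 deficient replicate 1, without dim genes, with a trend and robust prior and with median centring, and to 4, the same 4 genes, with array weights.

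Among transcription factors that drive acinar genes, Ptf1a and its partner Rbpjl, both parts of PTF1, stood at 0.14 and 0.089 without passing. Both were dim, with means of 2.92 and 4.23 in the controls, under the array medians, where a decrease may be understated or missed. Bhlha15 (Mist1), a factor of secretory cells in many tissues, fell from 7.01 ± 0.16 to 5.88 ± 0.33 (log2 −1.13, SE 0.18, limma adjusted p = 0.0418). Nr5a2, brighter at 8.46 in the controls, stood at −0.87 with every deficient array below every control (adjusted p = 0.0655), and Pdx1 at 0.096. Of 10 such factors and islet or gut hormones measured, 2 passed in limma as lower and 0 as higher. Of the 10, 6 had an unadjusted p under 0.05, where 16.6% of all genes did. The other that passed was Gcg, the glucagon precursor also made by gut endocrine cells, at −1.11 (limma adjusted p = 0.0183). Without passing, Ins2 stood at 0.24, Iapp at −0.52, Sst at −0.50 and Ppy at 0.36. Bhlha15 lost its call in 9 of 17 alternatives, among them leaving out any 1 array but caspase-8 deficient replicate 1, with differences of −1.23 to −0.94 over the 6, and −0.66 (adjusted p = 0.0738) when its probe sets were averaged. Gcg lost it without control replicates 1 or 2 or caspase-8 deficient replicates 2 or 3 (−1.14 to −1.01).

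With 1 probe set per gene, control replicate 3 was the highest of the 6 arrays for all 7 measured members. It was so for 12.5% of all genes, but this share is no like measure for Clps, Pnliprp1 and Pnliprp2. Their groups did not overlap, so their highest array had to be a control. Among the 3 controls alone, control replicate 3 was the highest for all 7, against 33.8% of all genes. Its excess over the mean of control replicates 1 and 2 was 0.17 for Clps, 0.45 for Pnliprp1, 0.47 for Pnliprp2, 0.61 for Cel, 0.79 for Cpa1, 1.60 for Cpb1 and 0.45 for Ctrb1. The second Clps probe set did not share this, with control replicate 3 at 10.64 between control replicates 1 and 2 at 10.63 and 10.65. Over all genes the median excess was 0.0047. Of the 13 other pancreatic enzymes, 6 had it as the highest of the 6 arrays. It was the highest of the 3 controls for 10 of the 13, where it was so for 33.8% of all genes, with a median excess of 0.32 and the largest, 0.90, in the elastase Cela2a.

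The same array had high levels of genes of the stomach surface. Gkn1 and Gkn2, the gastrokines of gastric surface mucous cells, read 10.58 and 10.93 there, against means of 4.15 and 4.10 in the other controls, and these were the 2 largest excesses of all 18193 genes. The trefoil factors Tff1 and Tff2 were 4.11 and 2.15 higher, and the gastric mucin Muc5ac 2.57 higher. In all, 5 of 11 measured stomach genes stood more than 1 log2 unit above the other controls in this array, as did 0.511% of all genes. Chief and parietal cell genes did not share this, with Pgc at −0.17, Atp4a at 0.0022 and Atp4b at 0.091. No stomach gene passed between the genotypes in limma (0 of 11, 2 at an unadjusted p under 0.05), and the list's mean relative to its control mean was 1.36 in this array, −0.70 and −0.66 in the other controls and −0.52 to −0.49 in the deficient arrays.

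**Figure D3:**
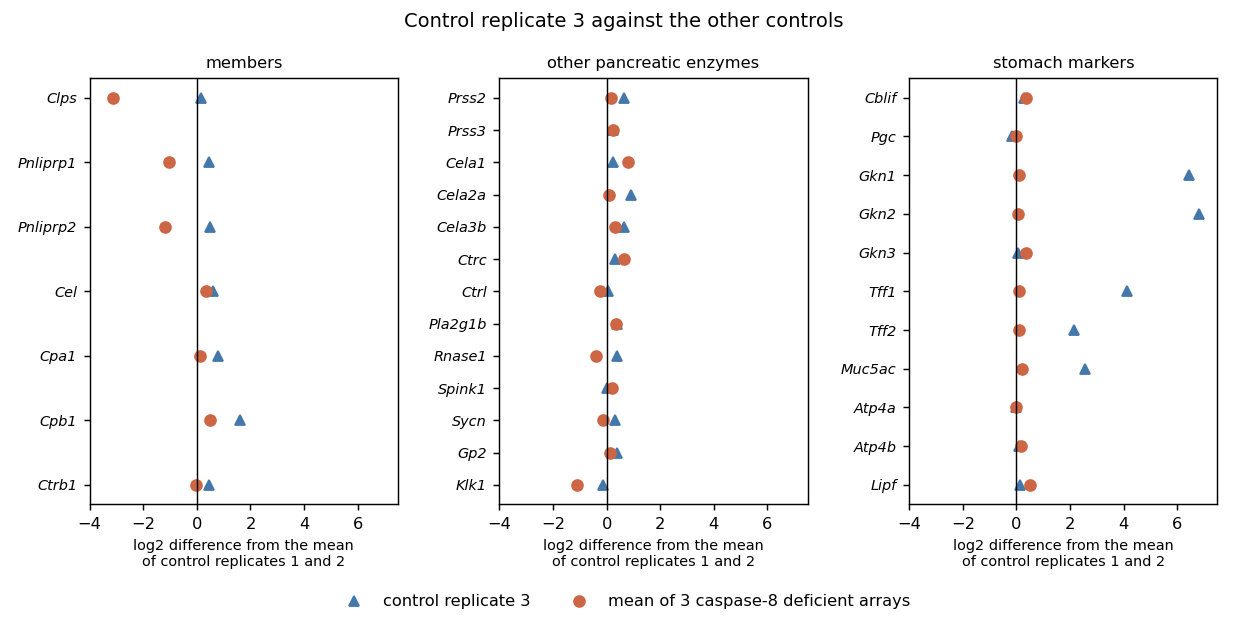
Log2 difference from the mean of control replicates 1 and 2, for control replicate 3 (blue triangles) and for the mean of the 3 caspase-8 deficient arrays (orange circles), in members, other pancreatic enzymes and stomach markers. With 1 probe set per gene, control replicate 3 lies right of 0 for every member. It reaches 6.83 for Gkn2, while Clps in the deficient arrays lies at −3.13.

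Control replicate 3 also had a narrower Gapdh gap, 0.22, than control replicates 1 and 2, at 0.68 and 0.93. Stomach signal and Gapdh gap thus split the controls alike, and their parts in the member values cannot be told apart here. Without control replicate 3 the differences of all 7 members moved up. They were then −3.13 for Clps, −1.05 for Pnliprp1, which lost its call, and −1.18 for Pnliprp2. For Cel they were 0.33, for Cpa1 0.11, for Cpb1 0.49 and for Ctrb1 −0.018, so that Cpa1 and Cpb1 changed sign. Against control replicate 3 alone, with no test, the deficient means differed by −3.29 for Clps, −1.12 for Cpb1 and −0.28 for Cel. When caspase-8 deficient replicate 1 was left out as well, a setting added after the data were seen, Clps stood at −3.20 and was the only member that passed.

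Genes whose profile over the 6 arrays lay nearest to that of Clps were picked by the root mean square distance between control-centred log2 values. The 6 nearest were Mptx1, a mucosal pentraxin, at a distance of 0.14, the angiogenin Ang4 at 0.23, the gasdermin Gsdmc2 at 0.49, the stress-induced regulator Nupr1 at 0.65, the phospholipase Pla2g4c at 0.66 and the intelectin Itln1 at 0.71. Mptx1 read 10.86, 10.24 and 10.99 in the controls against 7.69, 7.39 and 7.36. It fell by 3.22 (SE 0.21, limma adjusted p = 0.00111). Pnliprp2 and Pnliprp1 were farther from Clps, at 1.34 and 1.41, and Cel, Cpa1, Cpb1 and Ctrb1 at 2.13 to 2.35. Among themselves Pnliprp1 and Pnliprp2 were 0.41 apart, and Cel, Cpa1, Cpb1 and Ctrb1 0.15 to 0.40. These distances describe shape and size of change only, and a gene chosen this way is low in the deficient arrays because Clps is.

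**Figure D4:**
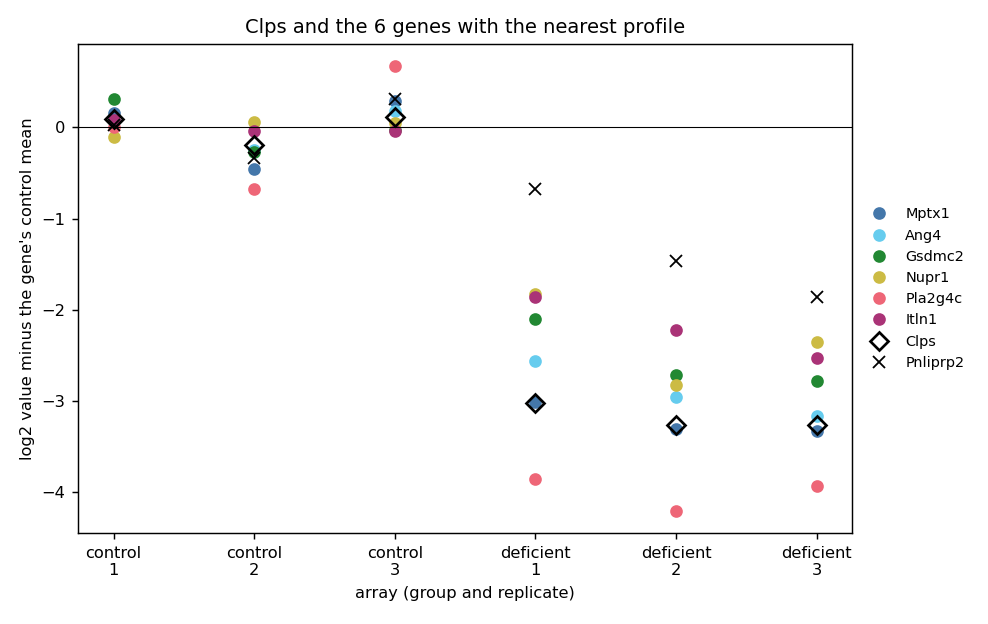
Log2 value minus the gene's own control mean in each array for Clps (open diamonds), its 6 nearest genes (filled circles) and Pnliprp2 (crosses). Clps and Mptx1 lie close together in the deficient arrays and less so in the controls, while Pnliprp2 lies at −0.68 to −1.86 in the deficient arrays.

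Markers of secretory cells of the crypt were lower in the same arrays. Of 14 Paneth cell genes listed, 8 were measured. In limma 6 of the 8 fell and 0 rose, where 0.467% and 0.308% of all genes did, with a median of −1.85. The other 2 did not pass: Habp2 at −0.17 and Defa3, the only defensin of the list with a value, at −0.039. Defa3 was dim, with a control mean of 3.16, where a decrease may be missed. Of the 6 that fell, 3, Mptx1, Ang4 and Itln1, are also among the nearest genes above. Lyz1, which encodes lysozyme, fell by 1.33 (adjusted p = 0.00352) and Ang4 by 2.89 (adjusted p = 0.00111). Mmp7 and Pla2g2a, named after their values were seen, changed by −1.82 and −1.89. Of 10 goblet cell genes, 4 fell and 0 rose, with a median of −0.82. They were Clca1 (−1.10), Spink4 (−1.13), Atoh1 (−0.84) and the mucin Muc2 (−1.03).

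Relative to their control means, the Paneth list averaged 0.069, −0.24 and 0.18 in the controls against −1.56, −1.73 and −1.80. The goblet list averaged −0.014, −0.14 and 0.15 in the controls and −0.88 or lower on every deficient array. Lyz1 read 12.46 or more and Muc2 11.57 or more on every array. Other genes of these lists read lower in the deficient arrays, such as Mptx1 at 7.36 to 7.69 and Retnlb at 3.45 to 3.81. These levels do not show how many of the cells remained. The deficient arrays lay below every control for both lists, as for Clps. Their part in the Clps, Pnliprp1 and Pnliprp2 differences was not tested. Leaving out 1 array gave −1.20 to −0.99 for Clca1, −1.24 to −1.04 for Spink4, −0.90 to −0.78 for Atoh1 and −1.15 to −0.85 for Muc2. Clca1 and Atoh1 lost their calls without any array but caspase-8 deficient replicate 1, Muc2 without any array, and Spink4 without control replicates 1 or 3 or caspase-8 deficient replicates 2 or 3.

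No other gene within 2 genes of a member on the chromosome passed in limma. The measured neighbours of Clps within 2 genes, Armc12, Lhfpl5 and Srpk1, stood at −0.095, 0.15 and 0.048. Beside the lipase cluster, Ccdc172 stood at 0.093, 1700019N19Rik at 0.40 and Hspa12a at −0.092. The paralog Clpsl2, the gene beside Clps, was not paired with a probe set. Of 10 other relatives of the members that were measured, among them the gastric lipase Lipf and the carboxypeptidases Cpa4 and Cpa5, 0 passed (3 at an unadjusted p under 0.05), with a median of 0.24. Lpl, lipoprotein lipase, read 8.01 in caspase-8 deficient replicate 1 and 3.41 to 4.28 on the other 5 arrays. That array averaged 1.36 above the control mean over 8 stromal and vessel genes, against −0.23 and −0.063 in the other deficient arrays. In that list 0 passed, with 1 at an unadjusted p under 0.05.

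Steps that follow lipase and protease action were measured in the same cells. Of 20 genes of fat uptake and chylomicron assembly 0 passed in limma, and 9 had an unadjusted p under 0.05. All 20 differences were positive, with a median of 0.31 against 0.022 over all genes, although 1 or 2 were negative in 10 of 17 alternatives, among them those without control replicates 2 or 3 or caspase-8 deficient replicate 1. Calls rose from 0 to 4 with array weights and to 1 without dim genes or with a trend and robust prior. The upward shift was not particular to this list. All 10 measured enterocyte genes had positive differences too, with a median of 0.24, although 7 of the 10 did with array weights. Mogat2, which rebuilds fat from absorbed monoglyceride, stood at 0.42, Mttp, which loads fat onto apolipoprotein B, at 0.47 and Fabp1, a fatty acid carrier, at 0.46. Of 12 intracellular and other lipases 0 passed (7 at an unadjusted p under 0.05), with a median of −0.012, Plb1, the brush border phospholipase B, at −0.64 and Mgll at −0.93.

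Of 11 genes of brush border peptide digestion 0 passed (3 at an unadjusted p under 0.05), with a median of 0.049. Tmprss15, the enteropeptidase that activates trypsinogen, stood at 0.67, and the peptidases Anpep and Dpp4 at −0.060 and 0.16. Of 10 enterocyte genes, 1 rose, the retinol-binding Rbp2, by 0.97 (SE 0.14, limma adjusted p = 0.0313), a call lost without any 1 array but caspase-8 deficient replicate 1 (0.86 to 1.02 in the settings that lost it) and under the replicate block (adjusted p = 0.0505). Of 7 lymphocyte genes 0 passed (0 at an unadjusted p under 0.05), with a median of −0.35.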

How the data were processed

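Total RNA of intestinal epithelial cells was labelled as biotin cRNA and hybridised to 1 Affymetrix array per animal, per the labels' protocols. The authors deposited log2 values made with RMA, per the submitters' processing notes; RMA's settings and a genome build: not given in the sources used here. Deposited values ran from 1.13 to 14.1. Of 45101 probe sets, 34945 were paired with 1 gene by the platform annotation, 932 with several and 9160 with none, and 64 were controls. The brightest probe set by mean over arrays stood for its gene, giving 18193 genes, with no filter on low values.

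Caspase-8 deficient minus floxed control was fitted over all genes with limma 3.58.1 (lmFit, eBayes, group as the only term, two-sided) in R 4.3.3, adjusted by Benjamini-Hochberg with a threshold of 0.05. Second probe sets were taken from the same fit over 34945 probe sets. The number of arrays, 3 per group, limits the precision, and p-values rest on the spread between animals. Tested on simulated data for this comparison (5 draws, 18193 genes, 200 changed), the steps recovered 99.4% of genes lowered by 3 and 71.2% of those lowered by 1 on the log2 scale, with 3.09% false calls. The simulated noise was independent between genes and arrays. It held no array set apart by tissue markers or by its Gapdh gap, so these rates need not hold for the real arrays. The members, the gene lists and the tests were chosen with earlier results of these data known. Named were all members, Casp8, up to 4 genes per list that passed, and the 6 nearest profiles to Clps; the other genes named were chosen after their values were seen. Alternatives are given in the closing section. Python 3.11.15, pandas 2.3.3 and matplotlib 3.10.9 were used for tables and plots.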

Additional observations from a re-analysis of the deposited data

How the results depend on the processing

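The Clps difference stayed within 1 SD of its value in all 18 alternatives, between −3.31 and −3.13. Counts of calls moved more. Leaving out 1 array gave 1 to 3 members, 0 to 1 other pancreatic enzymes and 18 to 251 genes in all, against 2, 0 and 141. With the Gapdh difference as a covariate 1 member and 36 genes passed, without control replicates 1 and 2 together 0 and 5, and without control replicate 3 and caspase-8 deficient replicate 1, added after the data were seen, 1 and 58. Without dim genes 298 genes passed and 1 other pancreatic enzyme, with a trend and robust prior 252 and 1, with array weights 1406 and 4, and with median centring 1 other pancreatic enzyme. The median over member probe sets, −1.20, was −2.42 without dim ones and −0.17 without those ending in _s_at, _x_at or _a_at, since fewer probe sets then entered; leaving out 1 array gave −1.29 to −1.05. With the Gapdh covariate the differences were −1.44 for Pnliprp1, −0.21 for Cel, −0.59 for Cpa1, −0.91 for Cpb1 and −0.42 for Ctrb1. From control replicate 3 alone, the deficient means differed by like amounts for these genes, −1.50, −0.28, −0.68, −1.12 and −0.47. Under the replicate block 2 members, 0 other pancreatic enzymes and 113 genes passed. Same-numbered arrays correlated at 0.077, 0.10 and −0.0074 in their deviations, and number 3 did not correlate best with its own number, so the numbers were not taken as pairs. Of 236 values of the 14 other named genes that passed, under these alternatives, 168 kept the call, 68 lost it and 0 reversed. The arrays hold no detection calls, so dim members could not be called present or absent.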
